A study of Mus musculus with 8 samples.

Results

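Described here are 10 genes of the transforming growth factor beta (TGFβ) and activin pathway in muscle FAPs. Fibro-adipogenic progenitors (FAPs) are the mesenchymal progenitor cells that lie between muscle fibers. The genes were taken by their symbols from the 55276 distinct symbols of the deposited expression tables. They are the ligands Tgfb1, Tgfb2, Tgfb3 and Inhba, the activin antagonist Fst and the receptors Tgfbr1 and Tgfbr2. The others are Ltbp1 and Ltbp2, of the latent TGFβ binding protein family, and the TGFβ-induced matrix protein gene Tgfbi. All 10 were found and all 10 passed the filter on low values at both days.

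TGFβ ligands are secreted in a latent form, held inactive by their own propeptide and tethered to the matrix by latent TGFβ binding proteins. Once freed, they bind the type II receptor, which recruits and phosphorylates the type I receptor, and receptor-activated SMAD proteins then carry the signal to the nucleus. Activin A, a dimer of the inhibin beta A chain encoded by Inhba, signals through its own receptors to the same SMAD proteins and is neutralised by follistatin, the product of Fst. In injured skeletal muscle both ligand types are known to act on myogenic cells and on fibroblastic cells that produce matrix.

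RNA was sequenced from GFP+ FAPs of control mice (Osr1 flox/+ CAGG Cre+) and Osr1cKO mice (Osr1 flox/flox CAGG Cre+). Osr1 encodes a zinc finger transcription factor that is active again in FAPs after injury. The tibialis anterior muscle of mice aged 4 to 6 months was injured by freeze-piercing, and cells were taken at 3 or 7 days post injury (dpi). Each of the 4 groups had 2 libraries, 8 in all. Both genotypes carried the CAGG-CreER transgene, which is active in all tissues, and both received tamoxifen, so cells other than FAPs also lost the floxed allele. GFP came from the recombined Osr1 flox allele, so control FAPs had also lost 1 copy of Osr1 and sorted cells of both genotypes were those that used the Osr1 promoter. A library held the cells of 1 mouse at 3 dpi and of 4 pooled mice at 7 dpi, so day cannot be told apart from pooling. The study's methods also name 2 instruments and read lengths, without stating which libraries ran on which. If these went with day, day cannot be told apart from sequencing run either.

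Values are given in deposited TPM, a relative level corrected for transcript length that may be compared between genes. Depth recovered from the low values lay between 36516527 and 51096357 fragments on genes per library, and each of the 10 genes had between 2364 and 57190 fragments in a library. Fold changes are differences of log2(scaled TPM + 1), with the standard error, from limma. A gene was called where its fold change was over 1.2 and, at 3 dpi, its unadjusted p was under 0.05 or, at 7 dpi, its Benjamini-Hochberg adjusted p was under 0.1. Osr1, the targeted gene, stood at 105 and 91.0 TPM in control and at 70.7 and 71.9 TPM in Osr1cKO libraries at 3 dpi, and at 67.6 and 71.6 against 64.4 and 60.8 TPM at 7 dpi. The Osr1cKO values were the lower ones on each day without overlap, as the labels have it, although these values take in all exons, including those outside the floxed part.

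All 9 FAP identity genes, Pdgfra and Dcn among them, were above 1 TPM in every group, and their summed level ran from 26864 to 54292 TPM. The lowest was control replicate 1 at 3 dpi, whose partner held 42523 TPM, and values at 3 dpi are also given without single libraries. Col1a1 and Col3a1 made up most of both sums, at 12404 and 6401 TPM, against 22891 and 12654 TPM in the partner. Control replicate 1 also had the lowest Cd34 and Lum at 3 dpi, but the highest Pdgfra (365 TPM) and Dcn (1332 TPM). At 3 dpi 2 of the 9, Osr1 and Ly6a, which encodes Sca-1, were called lower in Osr1cKO FAPs, with Ly6a at 3058 and 2020 TPM, against 5407 and 4232 TPM in control libraries. Markers of cells that the gate should have left out were low: the summed level over all libraries ran from 13.25 to 89.65 TPM for 12 macrophage genes, from 4.28 to 14.51 TPM for 6 lymphoid genes, from 4.08 to 20.95 TPM for 6 endothelial genes and from 0 to 54.05 TPM for 5 erythroid genes. The 6 mural genes summed to between 32.77 and 117.38 TPM, the 6 muscle stem cell genes to between 5.52 and 41.82 TPM, the 6 myofiber genes to between 7.63 and 67.75 TPM, and the 5 Schwann cell genes to between 2.25 and 6.10 TPM. In such bulk libraries, fewer cells of a type and less RNA per cell cannot be told apart.

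The 10 genes were expressed at every day and in both genotypes. Ltbp2 was the highest of them at 3 dpi, with a mean of 435 ± 129 TPM in control, against 506 ± 64.8 TPM in Osr1cKO FAPs (SD, n = 2). At 7 dpi Tgfbi was the highest, with 349 ± 58.6 TPM in control, against 565 ± 79.4 TPM in Osr1cKO FAPs (SD, n = 2). Tgfbr1 had the lowest mean in 3 of the groups, and Tgfb1 had the lowest in control FAPs at 7 dpi. The spread between the 2 libraries of a group was wider at 3 dpi: the higher library exceeded the lower by more than 1.5 times for 3 of the 10 genes in control and 5 in Osr1cKO FAPs, compared with 0 and 2 at 7 dpi.

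**Figure D1:**
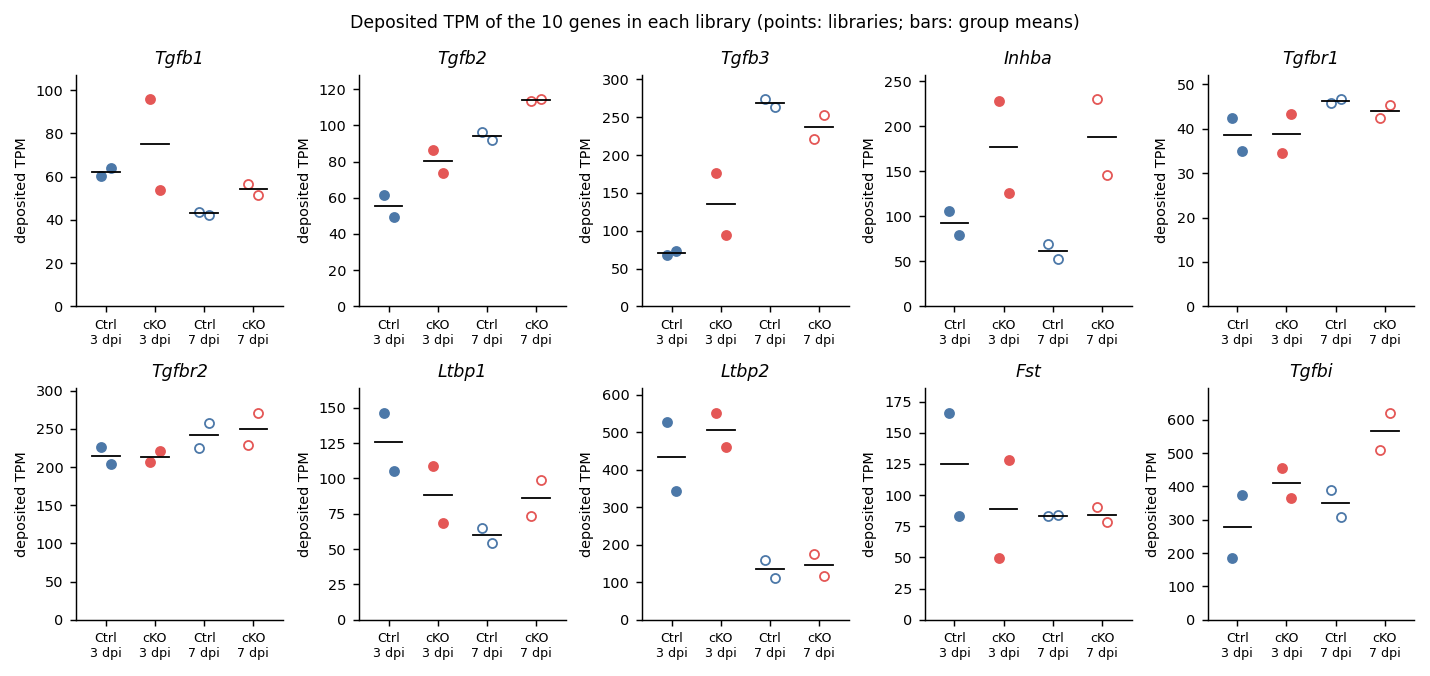
Deposited TPM (y axis, from 0, a scale of its own for each gene) in the 4 groups (x axis). Each point is 1 library, filled at 3 dpi and open at 7 dpi, blue for control and red for Osr1cKO, and each bar is a group mean. For Inhba both Osr1cKO libraries lie above both control libraries at each day, and for Ltbp2 all libraries at 3 dpi lie above all libraries at 7 dpi.

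At 3 dpi, 3 of the 10 genes were called, all higher in Osr1cKO FAPs: Tgfb2, Tgfb3 and Inhba. Over all 15699 genes tested, 6.27% were called, 2.38% higher and 3.89% lower. None of the 10 genes was called lower. All 3 calls were lost without Osr1cKO replicate 1. The log2 fold changes were then 0.40 for Tgfb2, 0.39 for Tgfb3 and 0.42 for Inhba, and that of Ltbp1 was -0.88. The same 3 genes were those whose 2 Osr1cKO libraries lay above both control libraries on scaled TPM, which held for 18.3% of all genes (18.2% on deposited TPM), and 0 of the 10 lay below, against 18.1% of all genes (18% on deposited TPM). The median log2 fold change was 0.23 over the 10 genes and 0.0070 over all genes. No Benjamini-Hochberg adjusted p in this comparison was under 0.1 for any gene tested with limma.

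At 7 dpi, 0 of the 10 genes were called by limma with Benjamini-Hochberg adjustment, where 0.0664% of 16578 genes were, 0.0181% higher and 0.0483% lower. With the fold change kept and the p left unadjusted, 3 of the 10 passed, against 11.1% of all genes: Inhba and Tgfbi were higher (5.21% of all genes) and Tgfb3 lower (5.91%) in Osr1cKO FAPs. By that rule 864 genes were higher and 979 lower, but 2282 higher and 468 lower without further scaling of TPM. The median log2 fold change of all genes was then 0.11, against 0.0046 after scaling, so fold changes at 7 dpi are relative to the median of all genes. With limma-voom on recovered fragments, 1 of the 10, Inhba, was called. On scaled TPM, 5 of the 10 had both Osr1cKO libraries above both control libraries (Tgfb1, Tgfb2, Inhba, Ltbp1 and Tgfbi), against 23% of all genes, and 2 had both below (Tgfb3 and Tgfbr1), against 22.8%. On deposited TPM the same 7 genes stood apart in the same directions, where 42.8% of all genes were higher and 10.7% lower. The median log2 fold change was 0.06 over the 10 genes and 0.0046 over all genes.

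**Figure D2:**
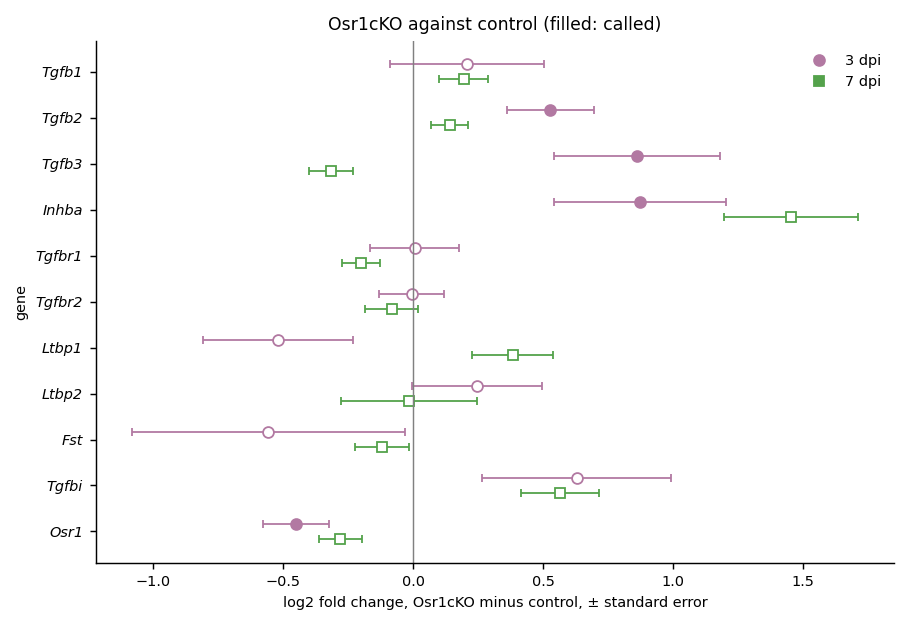
Log2 fold change of Osr1cKO against control FAPs (x axis, with its standard error from limma) for the 10 genes and Osr1 (y axis), at 3 dpi (circles) and 7 dpi (squares). Filled symbols passed the threshold of their day: Tgfb2, Tgfb3, Inhba and Osr1 at 3 dpi and no gene at 7 dpi. Tgfb3 lies on opposite sides of 0 at the 2 days.

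Inhba (ENSMUSG00000041324.14, chromosome 13, 16011851 to 16031621 on the plus strand of GRCm38) encodes the inhibin beta A chain that forms activin A. Of the 4 ligands it had the largest fold change between the genotypes at 7 dpi. Control libraries held 106 and 79.5 TPM at 3 dpi and 69.8 and 52.3 TPM at 7 dpi. Osr1cKO libraries held 228 and 125 TPM at 3 dpi and 230 and 146 TPM at 7 dpi. The genotypes did not overlap at either day, and the lowest Osr1cKO library was above the highest control library. At 3 dpi the log2 fold change was 0.87 ± 0.33 (limma, unadjusted p = 0.0457, Benjamini-Hochberg adjusted p = 0.784). At 7 dpi it was 1.45 ± 0.26, a fold change of 2.74 (limma, unadjusted p = 0.0018, adjusted p = 0.228). The call at 3 dpi was lost without either control library or without Osr1cKO replicate 1, the last of which left a log2 fold change of 0.42. Without single libraries at 7 dpi the log2 fold change stayed between 1.10 and 1.81, and the adjusted p was 0.0441 with limma-voom and 0.0331 without control replicate 1. The change from 3 to 7 dpi passed in neither genotype, with log2 fold changes of -0.52 ± 0.34 in control and 0.05 ± 0.34 in Osr1cKO FAPs.

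Tgfb2 (ENSMUSG00000039239.14, chromosome 1, 186622792 to 186705989 on the minus strand) encodes the TGFβ2 ligand. Its libraries held 61.4 and 49.3 TPM in control, against 86.3 and 73.9 TPM in Osr1cKO FAPs at 3 dpi, then 96.3 and 92.0 TPM in control, against 113 and 114 TPM in Osr1cKO FAPs at 7 dpi. The 4 groups did not overlap and stood in the order control 3 dpi, Osr1cKO 3 dpi, control 7 dpi, Osr1cKO 7 dpi. The log2 fold change between genotypes was 0.53 ± 0.17 at 3 dpi (limma, unadjusted p = 0.0258, adjusted p = 0.773) and 0.14 ± 0.07 at 7 dpi (unadjusted p = 0.106, adjusted p = 0.486). Without further scaling of TPM the value at 7 dpi was 0.27 (unadjusted p = 0.0080, adjusted p = 0.160), past the unadjusted rule. Leaving out control replicate 2 or Osr1cKO replicate 1 at 3 dpi ended the call, with log2 fold changes of 0.37 and 0.40. Summed levels of the 5 tenocyte genes, Scx, Tnmd, Mkx, Thbs4 and Kera, stood in the same order over the groups: 522 and 776 TPM in control, against 1564 and 1765 TPM in Osr1cKO FAPs at 3 dpi, then 2261 and 2486 against 2914 and 3327 TPM at 7 dpi as the lower and higher library of each group. Thbs4 made up most of these sums, none of the 5 was at 0 in any library, and their part in the Tgfb2 levels was not tested.

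Inhba and Tgfb2 were the 2 of the 10 genes whose Osr1cKO libraries lay above both control libraries at both days, which 5.84% of 15043 genes did on scaled TPM. RefSeq promoter windows of GRCm38.p6 were at hand for 8 of the 10 genes. The 250 bases before the start site of Inhba and Tgfb2 are shown because these 2 were also the only ones of the 8 with TATAAA, the core of a TATA box, in capitals. The Inhba window is chr13:16011601-16011850 on the plus strand and the Tgfb2 window is chr1:186705990-186706239 on the minus strand.
Inhba: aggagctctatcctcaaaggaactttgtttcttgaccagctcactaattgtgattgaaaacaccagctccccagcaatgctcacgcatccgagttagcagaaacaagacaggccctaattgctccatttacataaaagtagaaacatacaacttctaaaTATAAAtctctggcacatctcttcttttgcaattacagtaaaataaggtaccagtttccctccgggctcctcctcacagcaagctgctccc
Tgfb2: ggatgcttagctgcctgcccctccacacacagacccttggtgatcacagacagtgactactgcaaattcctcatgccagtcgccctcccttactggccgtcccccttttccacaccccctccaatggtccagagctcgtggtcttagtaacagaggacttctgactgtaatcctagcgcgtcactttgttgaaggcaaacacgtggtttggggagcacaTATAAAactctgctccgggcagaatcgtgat
The letters TATAAA stood at -91 to -86 from the start in Inhba and at -31 to -26 in Tgfb2, and were found on either strand in 12.4% of all 32851 windows of this length. Whether they act as a TATA box in either gene was not tested. CAGACA, the core of the CAGA box that SMAD3 and SMAD4 bind, was searched on both strands in the same way and was in 17.1% of all windows. It was found in the Tgfb2 window at -204 to -199 and in windows of second annotated starts of Ltbp1 and Tgfbr1. TGACGTCA, the cAMP response element, was in 1.55% of all windows and in that of the first Ltbp1 start. None of the 10 windows of these 8 genes held TGANTCA (the AP-1 site, 6.75% of all windows) or GCTACTG (an odd-skipped family site, 3.03%). Of the Tgfb2 window, 83 bases lay outside annotated exons, the rest being covered by exons of other transcripts.

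Tgfb3 (ENSMUSG00000021253.7, chromosome 12, 86056745 to 86079041 on the minus strand) encodes the TGFβ3 ligand and moved most with time among the ligands. It stood at 68.0 and 72.9 TPM in control and at 176 and 94.2 TPM in Osr1cKO FAPs at 3 dpi. At 7 dpi it stood at 274 and 263 TPM in control and at 221 and 252 TPM in Osr1cKO FAPs. Osr1cKO libraries were thus the higher ones at 3 dpi and the lower ones at 7 dpi, with no overlap at either day, a reversal that 3.26% of genes showed. Against control, the log2 fold change was 0.86 ± 0.32 at 3 dpi (limma, unadjusted p = 0.0424, adjusted p = 0.784) and -0.32 ± 0.08 at 7 dpi (unadjusted p = 0.0106, adjusted p = 0.302). The value at 7 dpi no longer passed the unadjusted rule without further scaling of TPM, at -0.18 (limma, unadjusted p = 0.0868), or in the fit of all 8 libraries, at -0.30 (unadjusted p = 0.297). The difference between these effects, the genotype by day interaction, was -1.19 ± 0.37 on the log2 scale (limma, unadjusted p = 0.0148, adjusted p = 0.659), and it was -0.73 without Osr1cKO replicate 1 and -1.66 without Osr1cKO replicate 2 at 3 dpi. No gene passed the interaction test at an adjusted p under 0.05, that is 0% of 17371 genes, and 6.78% had an unadjusted p under 0.05. Of the 10 genes, 0 passed with limma or with limma-voom, and 2 had an unadjusted p under 0.05, Tgfb3 and Ltbp1. At 3 dpi Osr1cKO replicate 1 was the higher library, and without it the log2 fold change was 0.39 (unadjusted p = 0.118 with limma). The call was also lost without either control library.

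Tgfb1 (ENSMUSG00000002603.15, chromosome 7, 25687002 to 25705077 on the plus strand) encodes TGFβ1. At 3 dpi its libraries held 60.4 and 64.0 TPM in control, against 95.8 and 54.04 TPM in Osr1cKO libraries, which lay on both sides of the control values. At 7 dpi they were 43.7 and 42.5 TPM in control, against 56.8 and 51.7 TPM in Osr1cKO libraries, without overlap. The log2 fold change was 0.21 ± 0.30 at 3 dpi (limma, unadjusted p = 0.513) and 0.19 ± 0.09 at 7 dpi (unadjusted p = 0.0865, adjusted p = 0.460). Without further scaling of TPM the value at 7 dpi was 0.32 (unadjusted p = 0.0083, adjusted p = 0.160), past the unadjusted rule. Without Osr1cKO replicate 1 the value at 3 dpi was -0.22.

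The proportions of the 3 TGFβ ligand transcripts do not depend on the scaling between libraries. Tgfb1 made up 31.8% and 34.4% of their summed TPM in control, against 26.7% and 24.3% in Osr1cKO libraries at 3 dpi, and 10.6% and 10.7% against 14.5% and 12.4% at 7 dpi. Tgfb3 made up 35.8% and 39.1% in control and 49.2% and 42.4% in Osr1cKO libraries at 3 dpi, and 66.2% and 66.2% against 56.5% and 60.3% at 7 dpi. In both genotypes Tgfb3 thus held the largest share, more so at 7 dpi, and the Osr1cKO values lay between those of the control days. Tgfb2 kept to a narrower range, with means of 29.4 ± 4.14% and 28.7 ± 6.50% at 3 dpi and 23.2 ± 0.115% and 28.2 ± 1.16% at 7 dpi in control and Osr1cKO FAPs (SD, n = 2). Averaged over both days, Osr1cKO minus control was -2.38 percentage points for Tgfb1, 2.10 for Tgfb2 and 0.277 for Tgfb3, with two-sided exact permutation p = 0.389, 0.444 and 0.889. These exact tests permuted genotype within day over 36 arrangements, and p = 0.0556 was the smallest they could give. At 3 and 7 dpi the differences were -7.57 and 2.82 percentage points for Tgfb1, and 8.32 and -7.77 for Tgfb3. Such opposite differences cancel in an average over days, so for these 2 shares the tests cannot show whether genotype mattered within a day.

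**Figure D3:**
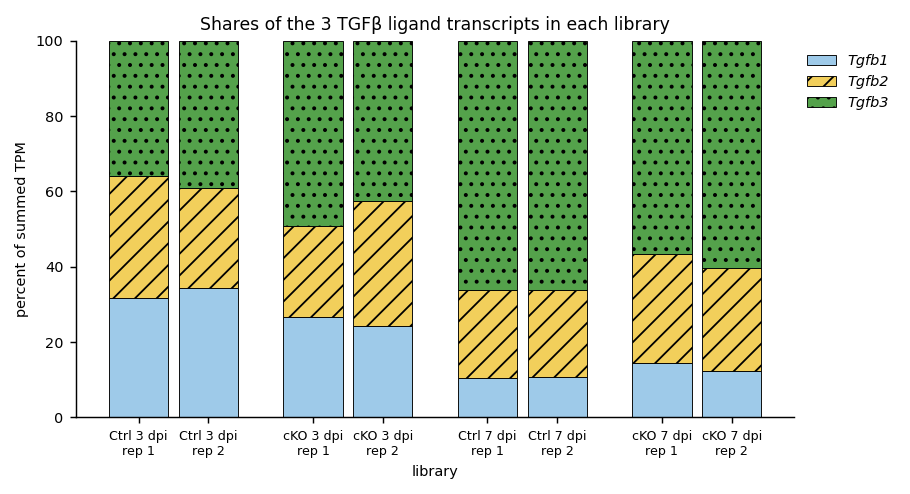
Percent of the summed TPM of Tgfb1, Tgfb2 and Tgfb3 (y axis) held by each transcript in each of the 8 libraries (x axis). Tgfb3 takes 35.8 to 49.2% at 3 dpi and 56.5 to 66.2% at 7 dpi.

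Fst (ENSMUSG00000021765.9, chromosome 13, 114452290 to 114458951 on the minus strand) encodes follistatin, which binds activin and blocks its receptor contact. Of the 10 genes it had the widest spread between the 2 Osr1cKO libraries at 3 dpi. Its levels were 166 and 83.4 TPM in control, against 49.5 and 128 TPM in Osr1cKO libraries at 3 dpi, and 82.9 and 84.1 TPM against 90.3 and 78.3 TPM at 7 dpi. The genotypes overlapped at both days, and log2 fold changes were -0.56 ± 0.53 at 3 dpi and -0.12 ± 0.10 at 7 dpi (limma, unadjusted p = 0.337 and 0.294). Without Osr1cKO replicate 1 the value at 3 dpi was 0.10, and without Osr1cKO replicate 2 it was -1.21.

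The ratio of Inhba to Fst, the activin chain over its antagonist, was under 1 in all 4 control libraries, at 0.640 and 0.953 at 3 dpi and 0.842 and 0.622 at 7 dpi. Osr1cKO libraries stood at 4.61 and 0.980 at 3 dpi and at 2.55 and 1.87 at 7 dpi. The Osr1cKO ratio was the higher at both days without overlap, but at 3 dpi replicate 2 lay close to the upper control. On the log2 scale the difference was 1.44 at 3 dpi and 1.59 at 7 dpi, and 1.52 over both days, with a two-sided exact permutation p of 0.0556, the smallest that the 36 arrangements allow. Leaving out single libraries gave differences between 0.96 and 2.08. Fst itself overlapped between the genotypes at both days. The ratio contains Inhba, so it is not a result independent of the Inhba levels above.

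**Figure D4:**
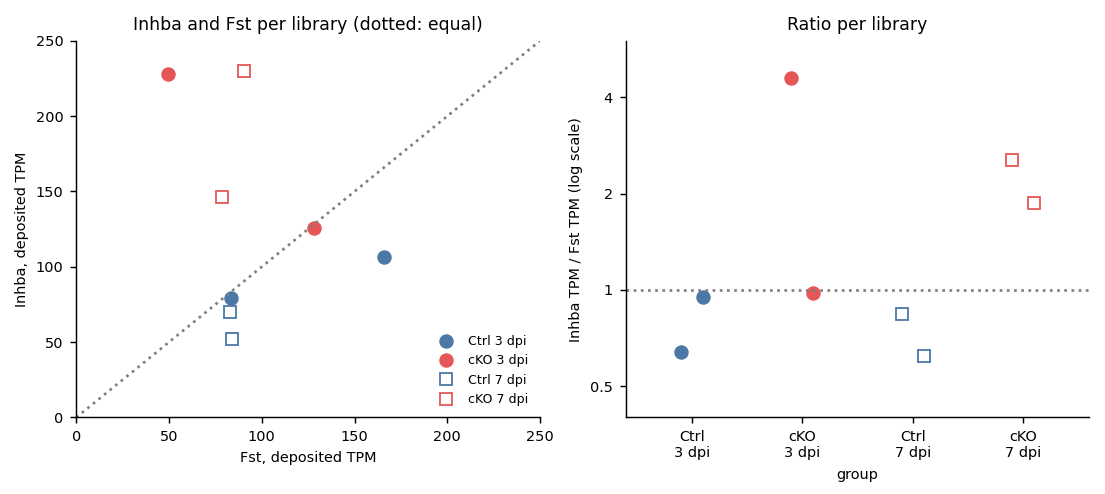
Left, Inhba (y axis) against Fst (x axis) in deposited TPM, 1 point per library, with a dotted line where the levels are equal. Right, their ratio per library (y axis, log scale) by group (x axis). The 4 control libraries lie between 0.622 and 0.953, and the Osr1cKO libraries between 0.980 and 4.61.

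Tgfbr1 (ENSMUSG00000007613.15, chromosome 4, 47353222 to 47414931 on the plus strand) and Tgfbr2 (ENSMUSG00000032440.13, chromosome 9, 116084293 to 116175360 on the minus strand) encode the type I and type II receptors. They varied least over the 4 groups: the highest group mean exceeded the lowest by 1.195 times for Tgfbr1 and 1.17 times for Tgfbr2. Tgfbr1 held 42.5 and 34.9 TPM in control, against 34.5 and 43.3 TPM in Osr1cKO libraries at 3 dpi, and 45.8 and 46.6 TPM against 42.4 and 45.4 TPM at 7 dpi. At 7 dpi both Osr1cKO libraries lay slightly below both controls, with a log2 fold change of -0.20 ± 0.07 (limma, unadjusted p = 0.0358, adjusted p = 0.367) that was under the fold change required, and of -0.07 without further scaling of TPM. Tgfbr2 held 226 and 204 TPM in control, against 206 and 221 TPM in Osr1cKO libraries at 3 dpi, and 226 and 258 TPM against 229 and 271 TPM at 7 dpi. Its genotypes overlapped at both days, with log2 fold changes of -0.0060 ± 0.13 and -0.08 ± 0.10. At every day and in both genotypes the type II receptor transcript was thus more abundant than that of the type I receptor.

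Ltbp1 (ENSMUSG00000001870.16, chromosome 17, 75005568 to 75392512 on the plus strand) encodes a protein that binds the latent TGFβ complex covalently and anchors it in the matrix. Its libraries held 147 and 105 TPM in control, against 109 and 68.4 TPM in Osr1cKO FAPs at 3 dpi, and 65.2 and 54.3 TPM against 73.4 and 99.2 TPM at 7 dpi. The genotypes overlapped at 3 dpi, while at 7 dpi both Osr1cKO libraries were the higher. The log2 fold change was -0.52 ± 0.29 at 3 dpi (limma, unadjusted p = 0.130) and 0.38 ± 0.16 at 7 dpi (unadjusted p = 0.0528, adjusted p = 0.405), and the interaction was 0.89 ± 0.36 (unadjusted p = 0.0427, adjusted p = 0.728). Leaving out single libraries moved the value at 3 dpi between -0.88 (without Osr1cKO replicate 1, limma unadjusted p = 0.0222) and -0.17 (without Osr1cKO replicate 2). At 7 dpi it moved between 0.20 (without Osr1cKO replicate 2) and 0.57 (without Osr1cKO replicate 1, unadjusted p = 0.0086), and it was 0.51 without further scaling (unadjusted p = 0.0210). The interaction was 0.54 without Osr1cKO replicate 2 at 3 dpi (unadjusted p = 0.126).

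Ltbp2 (ENSMUSG00000002020.15, chromosome 12, 84783212 to 84876532 on the minus strand) encodes a relative of Ltbp1 that sits on microfibrils and, unlike it, is not known to bind latent TGFβ. Control libraries held 526 and 344 TPM at 3 dpi and 158 and 111 TPM at 7 dpi. Osr1cKO libraries held 552 and 461 TPM at 3 dpi and 176 and 116 TPM at 7 dpi. Genotypes overlapped at both days, with log2 fold changes of 0.24 ± 0.25 and -0.02 ± 0.26, while the days stood far apart.

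Tgfbi (ENSMUSG00000035493.10, chromosome 13, 56609523 to 56639562 on the plus strand) encodes a secreted matrix protein that was named for its induction by TGFβ. Control libraries held 185 and 373 TPM at 3 dpi and 391 and 308 TPM at 7 dpi. Osr1cKO libraries held 455 and 365 TPM at 3 dpi and 509 and 621 TPM at 7 dpi. At 3 dpi the lower control library set much of the difference, since the other control library lay within the Osr1cKO range, and at 7 dpi the genotypes did not overlap. The log2 fold change was 0.63 ± 0.36 at 3 dpi (limma, unadjusted p = 0.144, adjusted p = 0.833) and 0.56 ± 0.15 at 7 dpi (unadjusted p = 0.0110, adjusted p = 0.304). Without control replicate 1 the value at 3 dpi was 0.11, and without control replicate 2 it was 1.14. Macrophages are a known source of Tgfbi and Tgfb1 too. The 12 macrophage genes summed to 55.6 and 64.7 TPM in control, against 63.2 and 89.7 TPM in Osr1cKO libraries at 7 dpi, with none at 0 in either group and 9 above 1 TPM in each, so the ranges overlapped. Ptprc, which encodes CD45, was at 0.216 TPM or less in every library, and the part of macrophage RNA in the levels of Tgfbi and Tgfb1 was not tested.

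The change from 3 to 7 dpi was tested in each genotype on all 8 libraries. In control FAPs 4 of the 10 were called at a fold change over 1.2 and an adjusted p under 0.05, 2 higher and 2 lower, compared with 45.4% of 17371 genes (21.3% higher and 24.1% lower). In Osr1cKO FAPs 3 were called, 2 higher and 1 lower, compared with 40.1% (18.2% higher and 21.9% lower). Both shares were near those of all genes. On scaled TPM, 4 of the 10 lay higher and 4 lower at 7 dpi without overlap in control FAPs (37.7% and 36.7% of all genes), and 4 higher and 1 lower in Osr1cKO FAPs (38.9% and 37.6%).

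Tgfb3 rose by 1.99 ± 0.26 on the log2 scale in control FAPs, a fold change of 3.98 (limma, adjusted p = 0.0013), and by 0.80 ± 0.26 in Osr1cKO FAPs (adjusted p = 0.0466). Tgfb2 rose by 0.84 ± 0.12 in control (adjusted p = 0.0020) and by 0.44 ± 0.12 in Osr1cKO FAPs (adjusted p = 0.0278). Ltbp2 fell by 1.60 ± 0.29 in control (adjusted p = 0.0045) and by 1.87 ± 0.29 in Osr1cKO FAPs (adjusted p = 0.0030). Ltbp1 fell by 0.97 ± 0.26 in control FAPs (adjusted p = 0.0192) and had a log2 fold change of -0.08 ± 0.26 in Osr1cKO FAPs (adjusted p = 0.822). Leaving out control replicate 1 at 3 dpi or control replicate 2 at 7 dpi ended the Ltbp1 call. In Osr1cKO FAPs, both rises were called only while replicate 2 at 3 dpi and both replicates at 7 dpi were kept, and without replicate 2 at 3 dpi they were 0.33 for Tgfb3 and 0.31 for Tgfb2, whereas without replicate 1 they were 1.26 and 0.56. The fall of Ltbp2 was called in both genotypes whichever single library was left out. The remaining 6 genes, Tgfb1, Inhba, Tgfbr1, Tgfbr2, Fst and Tgfbi, were not called in either genotype.

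**Figure D5:**
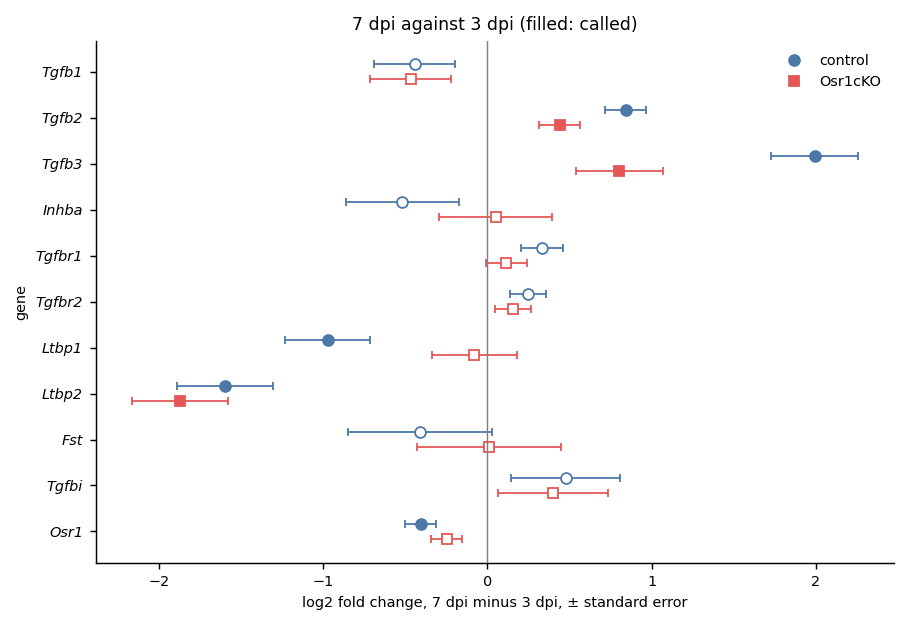
Log2 fold change of 7 against 3 dpi (x axis, with its standard error from limma) for the 10 genes and Osr1 (y axis), in control (circles) and Osr1cKO FAPs (squares). Filled symbols were called. Tgfb3 and Tgfb2 lie above 0 and Ltbp2 below 0 in both genotypes, and Ltbp1 is filled in control FAPs alone.

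Other genes of the pathway were read from lists chosen by role. Among the 8 other family ligands, 4 were tested at 3 dpi and 1 was called, Gdf15, which encodes a stress-induced cytokine of the family. Gdf15 stood at 29.0 and 38.7 TPM in control and at 14.6 and 14.8 TPM in Osr1cKO libraries, a log2 fold change of -1.13 ± 0.19 (limma, unadjusted p = 0.0018, adjusted p = 0.772). At 7 dpi 5 were tested and 0 called, also at an unadjusted p. With time, Inha, the inhibin alpha chain, rose from 1.42 and 1.07 to 5.03 and 5.71 TPM in control FAPs, and Gdf15 fell by 2.43 on the log2 scale (adjusted p = 6.0e-04 and 9.2e-04 with limma). In Osr1cKO FAPs Inha and Mstn, which encodes myostatin, rose by 1.24 and 0.71 and Gdf15 fell by 1.29, although Mstn was listed at 0 in all libraries at 3 dpi and at no more than 1.116 TPM at 7 dpi.

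Of 9 other receptors and co-receptors, 8 were tested and 0 called between genotypes at either day, with 0 and 1 (lower, at 7 dpi) past an unadjusted p of 0.05. Eng, the co-receptor endoglin, had 374 and 325 TPM in control libraries at 3 dpi and 135 and 125 TPM at 7 dpi, and it fell by 1.34 in control and 1.09 in Osr1cKO FAPs on the log2 scale (limma, adjusted p = 0.0011 and 0.0030). Acvr1, a type I receptor, and Bambi, a decoy receptor, rose by 0.44 and 0.48 in control FAPs (adjusted p = 0.0097 and 0.0416). Their values in Osr1cKO FAPs were 0.28 and 0.34 (limma, adjusted p = 0.0570 and 0.123). Among the 3 other activin antagonists, 0 were called between genotypes at either day, and 1 was past an unadjusted p of 0.05 at 7 dpi. That gene was Fstl3, a relative of follistatin that also binds activin, named after its values were seen. It stood at 19.4 and 15.9 TPM in Osr1cKO libraries, against 12.0 and 10.3 TPM in control, a log2 fold change of 0.49 (limma, unadjusted p = 0.0214, adjusted p = 0.335), so this antagonist was the higher in Osr1cKO libraries, as Inhba was. With time, Wfikkn2 rose by 0.83 and Fstl3 fell by 1.997 in control FAPs (adjusted p = 0.0124 and 0.0245), and their values in Osr1cKO FAPs were 0.53 and -1.59 (adjusted p = 0.0658 and 0.0592). The control libraries at 3 dpi lay far apart for Fstl3, at 105 and 23.4 TPM.

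The 14 other genes of latency, activation and matrix anchoring had a median log2 fold change of 0.16 at 3 dpi, against 0.0070 over all genes. In Osr1cKO FAPs 3 were called higher and 0 lower, where 2.38% and 3.89% of all genes were. Those with the smallest p and no overlap were Emilin1, whose product limits processing of the TGFβ precursor, and Fbn2, a microfibril protein. Emilin1 stood at 210 and 332 TPM in control and at 502 and 509 TPM in Osr1cKO libraries, a log2 fold change of 0.93 ± 0.25 (limma, unadjusted p = 0.0128, adjusted p = 0.772). Fbn2 stood at 10.3 and 15.1 against 20.6 and 31.3 TPM, a log2 fold change of 0.97 ± 0.28 (unadjusted p = 0.0169, adjusted p = 0.772). The other gene called higher at 3 dpi was Ltbp3, a further latent TGFβ binding protein, at 97.4 and 92.8 TPM in Osr1cKO libraries. Its log2 fold change was 0.40 (limma, unadjusted p = 0.0196, adjusted p = 0.772). At 7 dpi 0 of the 14 were called, also at an unadjusted p, and the median was -0.10. Ltbp3 then stood at 166 and 173 TPM in Osr1cKO libraries, and its -0.22 (unadjusted p = 0.0192) was under the fold change required. Its interaction was -0.63 (unadjusted p = 0.0015, adjusted p = 0.472), so it turned between the days as Tgfb3 did. With time, 6 rose and 3 fell in control and 6 rose and 5 fell in Osr1cKO FAPs, where 45.4% and 40.1% of all genes were called. Ltbp3 rose from 70.7 and 72.7 to 181 and 180 TPM in control FAPs (log2 fold change 1.40 ± 0.09, limma adjusted p = 1.9e-04), opposite to Ltbp1 and Ltbp2. Mmp14, a membrane-bound protease that can free TGFβ, rose by 1.29, while Lrrc32, which displays latent TGFβ on cell surfaces, and Furin, the convertase of the precursor, fell by 0.68 and 0.43 (adjusted p = 0.0016, 0.0199 and 0.0280). In Osr1cKO FAPs Ltbp3 and Mmp14 rose by 0.76 and 1.04, and Itgav, an integrin chain, and Fbn1, fibrillin 1, fell by 0.69 and 0.64. Itgav also fell in control FAPs, by 0.45 (adjusted p = 0.0304), and Lrrc32 and Furin also fell in Osr1cKO FAPs, by 0.80 and 0.54 (adjusted p = 0.0127 and 0.0136). The value of Fbn1 in control FAPs was -0.34 (limma, adjusted p = 0.0934).

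Among 14 genes of SMAD signalling and its regulators, 0 were called between genotypes at either day, and 0 passed an unadjusted p of 0.05. With time, 4 rose and 3 fell in control FAPs and 2 rose and 2 fell in Osr1cKO FAPs, again beside 45.4% and 40.1% of all genes. The inhibitory Smad7 held 296 and 209 TPM in control libraries at 3 dpi and 113 and 97.7 TPM at 7 dpi, and it fell by 1.16 in control and 0.81 in Osr1cKO FAPs (limma, adjusted p = 0.0014 and 0.0071). Smad6, also inhibitory, fell by 1.56 in control and had a value of -1.08 in Osr1cKO FAPs (limma, adjusted p = 0.0146 and 0.0587). Its control libraries at 3 dpi lay apart, at 43.2 and 15.9 TPM. Skil and Ski, repressors of SMAD complexes, rose by 0.49 and 0.29 in control FAPs, with values of 0.27 and -0.05 in Osr1cKO FAPs. Both genotypes shared a rise of Tgif1, a corepressor, by 0.43 in control and 0.66 in Osr1cKO FAPs, and of Smad3, a receptor-activated SMAD, by 0.62 and 0.60. They also shared a fall of the common partner Smad4, by 0.27 and 0.34.

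Of 16 textbook TGFβ target genes other than Tgfbi, 0 were called higher and 2 lower at 3 dpi, beside 2.38% and 3.89% of all genes. Their median log2 fold change was 0.24. The 2 lower genes were Id1, an inhibitor of basic helix-loop-helix factors, and Cdkn1a, the cell cycle inhibitor p21. Id1 stood at 262 and 190 TPM in control and at 152 and 151 TPM in Osr1cKO libraries, a log2 fold change of -0.56 ± 0.18 (limma, unadjusted p = 0.0284, adjusted p = 0.773), and Cdkn1a at 373 and 274 against 208 and 238 TPM, a log2 fold change of -0.52 ± 0.19 (unadjusted p = 0.0379, adjusted p = 0.784). At 7 dpi 0 were called, with a median of -0.07. At an unadjusted p of 0.05, 2 were higher (5.21% of all genes) and 0 lower (5.91%). The 2 were Acta2 and Cdkn2b, named after their values were seen. Acta2 stood at 677 and 527 TPM in Osr1cKO libraries, against 368 and 175 TPM in control, a log2 fold change of 1.10 (limma, unadjusted p = 0.0249, adjusted p = 0.342). Cdkn2b stood at 12.3 and 15.7 against 10.1 and 8.41 TPM, a log2 fold change of 0.42 (unadjusted p = 0.0387, adjusted p = 0.372). With time, 4 rose and 4 fell in control and 2 rose and 5 fell in Osr1cKO FAPs, beside the same shares of all genes. Postn, a matrix protein, rose from 1048 and 1717 to 5794 and 4701 TPM in control FAPs. The cross-linking enzyme Lox fell by 1.42 in control and in Osr1cKO FAPs alike (adjusted p = 0.0029 and 0.0037 with limma). In Osr1cKO FAPs Cdkn2b, a cell cycle inhibitor, and Postn rose by 1.24 and 1.17, and the value of Cdkn2b in control FAPs was 0.53 (adjusted p = 0.0715). Scx, Col7a1, Loxl2 and Timp1 form, together with Tgfbi, a further list of targets. It was picked on these samples and so is no independent evidence of a direction. Of its 4 genes other than Tgfbi 0 were called between genotypes at either day, and 3 were higher at 7 dpi at an unadjusted p. Scx rose and Timp1 fell with time in both genotypes, by 1.95 and 1.86 in control and by 1.86 and 1.72 in Osr1cKO FAPs.

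The genes whose levels were most like those of each of the 10 were taken by Pearson correlation of scaled log2(TPM + 1) over the 8 libraries, among 8373 other genes with a mean of at least 10 TPM. These values are a description, since the 8 libraries fall into 4 groups and all genes of a library share its scaling. The closest was Serf1 for Tgfb3 (r = 0.98), followed by Col6a1 (0.98), a collagen VI chain. For Ltbp2 it was Dcaf13 (0.99), for Tgfbr1 Utrn (0.99), which encodes utrophin, followed by Il6 (0.98), and for Tgfbr2 Mpv17 (0.98). Tgfb1 was closest to Surf6 (0.97), Tgfb2 to Mir3058 (0.97), Ltbp1 to 1110012L19Rik (0.98) and Tgfbi to Mphosph8 (0.97). For Fst it was Ptx3 (0.96), which encodes a secreted pentraxin. Inhba had the loosest match, with Gtf2ird1 at 0.90.

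Some of the 10 genes share exon sequence with a gene on the other strand, and whether the fragments were assigned by strand is not given in the sources used here. The shared part was 9.34% of Ltbp2 exon bases (D030025P21Rik), 7.60% and 4.82% of Tgfb3 (Gm48008 and Gm37804), 2.51% of Fst (Gm47040) and 2.14% of Tgfb2 (Gm29491). These partners had at most 2.95 TPM in any library.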

How the data were processed

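The authors aligned paired-end reads of stranded, polyA-selected libraries to mm10 with STAR, normalized with DESeq2 and deposited TPM per gene symbol, 1 table per library. The counter and its annotation are not given in the sources used here. GENCODE vM21 (GRCm38) gave coordinates and exon lengths. With these, between 98.7% and 98.9% of values below 50 fragments came out whole to within 0.02, which gave the depth. Libraries were brought to 1 scale through a trimmed mean of log ratios (30% trimmed). Genes holding at least 10 fragments in 2 libraries and 15 in all (without a length, a mean of 1 TPM) were tested with limma 3.58.1 (lmFit and eBayes with trend, two-sided) in R 4.3.3 on log2(scaled TPM + 1). Genotypes were compared on the 4 libraries of a day, and days and the interaction on all 8. Adjusted p-values (Benjamini-Hochberg) cover all genes tested, and p-values measure the spread between these libraries. The procedure was run on simulated data in which every gene and library had the same spread. Its error rates at the unequal spread of these libraries were not tested. Named pathway genes were at most 2 called genes per list, comparison and direction without overlap, by smallest p. Genotype values of Fstl3, Ltbp3, Acta2 and Cdkn2b were added after they were seen. Of the 3 genes most alike to each, the first or first 2 are named, and 10 cell marker lists were read. 1 named gene is not reported here. The 10 genes and the lists were chosen with earlier results of these data known. Alternatives were other scalings, pseudocounts, filters, thresholds, limma-voom, robust eBayes, a replicate block, other sample sets and leaving out each library.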

Additional observations from a re-analysis of the deposited data

Results flagged for a closer look

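Tgfb3 was higher in both Osr1cKO libraries at 3 dpi and lower in both at 7 dpi than in either control library, and its genotype effect at 7 dpi minus that at 3 dpi was -1.19 on the log2 scale (limma, unadjusted p = 0.0148, Benjamini-Hochberg adjusted p = 0.659). Leaving out single libraries moved this value between -1.66 and -0.73. The share of Tgfb3 among the 3 TGFβ ligand transcripts was likewise higher in Osr1cKO libraries at 3 dpi and lower at 7 dpi, by -7.77 percentage points at 7 dpi. The share of Tgfb1 moved the other way, lower at 3 dpi and higher by 2.82 percentage points at 7 dpi. Shares are parts of 1 sum, so the 2 moves are not independent of each other. The level of Tgfb1 itself was not lower at 3 dpi, with a log2 fold change of 0.21 ± 0.30. Its genotype by day interaction was -0.02 ± 0.35 (limma, unadjusted p = 0.945). For both shares the difference between the days was not tested.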

How the results depend on the processing

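Of 700 refits of single genes under the alternatives, 610 kept direction and side of the threshold, 27 lost and 18 gained a call and 45 turned sign. At 3 dpi, the counts were 564 higher genes and 1 of the 10 with no filter, 870 higher and 932 lower (1802 in all) in a fit of all 8 libraries, and 0 and 0 at an adjusted p under 0.1. At 7 dpi, the median log2 fold change of all genes was 0.11 without further scaling, with 2282 higher and 468 lower at an unadjusted p (864 and 979 after scaling) and 0 called. Fold changes at 7 dpi should be read relative to the median of all genes. With either other filter 0 were called, with limma-voom 188 and 1 of the 10, in the fit of all 8 libraries 517 lower at an unadjusted p and 0 called, and at an unadjusted p 1843 and 3 of the 10. Between days in Osr1cKO FAPs, 1 of the 10 was called with no filter. The interaction passed for 3 genes with a pseudocount of 0.1, 1 with the TPM filter and 30 with no filter. Replicate numbers were checked for pairing, and deviations of equal numbers correlated at -0.13 at 3 dpi and 0.0642 at 7 dpi, so they were not taken as pairs. The replicate block gave 911 called genes at 3 dpi (985 without it, and 4 of the 10), 27 at 7 dpi (11 without it, and 1 of the 10, Inhba, adjusted p = 0.0680), 6757 and 5803 between days in control and Osr1cKO FAPs (2 of the 10 in the latter), and 0 for the interaction.

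Leaving out 1 library gave between 158 and 1124 higher and 234 and 1676 lower genes at 3 dpi (410 to 2800 in all, 1 to 5 of the 10). At 7 dpi it gave 518 to 1100 higher and 622 to 1080 lower at an unadjusted p, 5 to 314 called and 0 to 2 of the 10. Between days it gave 4691 to 8142 in control and 3777 to 4808 in Osr1cKO FAPs (1 to 3 of the 10), and 0 to 69 for the interaction. Among the 10 genes, signs turned in comparisons where the gene was not called. With single libraries left out, log2 fold changes at 3 dpi ranged from -0.22 to 0.64 for Tgfb1, -0.13 to 0.14 for Tgfbr1, -0.078 to 0.054 for Tgfbr2, -0.060 to 0.54 for Ltbp2 and -1.21 to 0.10 for Fst. At 7 dpi they ranged from -0.17 to 0.0071 for Tgfbr2, -0.34 to 0.31 for Ltbp2 and -0.25 to 0.012 for Fst. Between days they ranged from -0.88 to 0.035 for Fst and -0.072 to 1.01 for Tgfbi in control FAPs, and in Osr1cKO FAPs from -0.40 to 0.49 for Inhba, -0.039 to 0.26 for Tgfbr1, -0.43 to 0.26 for Ltbp1 and -0.66 to 0.67 for Fst. For the interaction they ranged from -0.45 to 0.39 for Tgfb1, -0.17 to 0.0041 for Tgfbr2, -0.60 to 0.061 for Ltbp2, -0.24 to 1.08 for Fst and -0.62 to 0.46 for Tgfbi. Differences of shares ranged from -0.20 to 4.40 percentage points for Tgfb2 and -1.42 to 1.98 for Tgfb3. Other turned signs were Tgfbr1 at 3 dpi (-0.0080, TPM filter), Tgfbr2 at 3 dpi (0.025) and Ltbp2 at 7 dpi (0.0032) in the fit of all 8 libraries, Tgfbr2 (0.049), Ltbp2 (0.11) and Fst (0.010) at 7 dpi without further scaling, Ltbp1 (0.00036, TPM filter) and Fst (-0.018, no filter) between days in Osr1cKO FAPs, the interaction without further scaling for Tgfb1 (0.12), Tgfbr2 (0.054) and Tgfbi (0.065), and the Tgfb3 share on fragments without length (-0.519 percentage points). The causes were not tested.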
